A study of Mus musculus with 6 samples.

Results

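The genes described here are regulators of the pre-B cell receptor checkpoint: the transcription factors Bcl6, Bach2 and Myc, the D cyclins Ccnd2 and Ccnd3, the inhibitors of cyclin-dependent kinases (CDKs) Cdkn1a, Cdkn1b, Cdkn2a and Cdkn2d, and Trp53. They were chosen by name. Of these 10 genes, 8 had at least 1 probe annotated to that gene alone, out of 19938 genes measured in all, and each gene was read from its brightest such probe. Cdkn1a shared its probe with another gene and Trp53 was not analysed here. The 6 samples, each hybridised to its own Affymetrix expression array, form 2 groups. The Blnk group (3 samples) was transduced with Blnk, also called Slp65, and the pMIG group (3 samples) with pMIG, a retroviral vector that carries GFP. Both groups were pre-B cells transformed by BCR-ABL1, from Balb/c mice aged 4 weeks and labelled as Blnk KO, and RNA was taken from sorted GFP-positive cells on day 5 after transduction. Blnk was therefore added back from a vector. The labels do not say whether replicates were separate cultures or animals, so p-values reflect the spread among these 6 samples alone, and that spread may be technical. In such bulk samples, fewer cells of a type and less RNA per cell cannot be told apart.

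At the pre-B cell checkpoint a signalling pre-B cell receptor first drives division and then allows cells to leave the cycle and rearrange the light-chain genes. BLNK is the adaptor that links the receptor to its downstream enzymes. MYC and the D cyclins, which activate CDK4 and CDK6, push cells through G1, whereas proteins of the CIP/KIP and INK4 families hold these kinases back. BCL6 is a repressor that in pre-B cells silences the Cdkn2a and Trp53 loci, and BACH2 is a repressor that opposes BCL6 at the same checkpoint. BCR-ABL1 is a leukemia-causing tyrosine kinase that signals constantly, in place of cytokine.

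Values are probe intensities on a linear scale, and a log2 change is the mean log2 intensity of the Blnk samples minus that of the pMIG samples, with the standard error (SE) from limma. The adjusted p is the Benjamini-Hochberg value over all 19938 genes, with a threshold of 0.05. Median array intensity was 69.0 to 70.0 in the Blnk samples and 67.0 to 69.0 in the pMIG samples. Blnk itself stood at 2714, 3342 and 3022 in the Blnk samples, against 972, 926 and 1013 in the pMIG samples. Its log2 change was 1.64 (SE 0.091, limma adjusted p = 0.000101). The sources do not place this probe relative to the deleted part of Blnk, and the pMIG level is no check of the knockout. B-lineage markers were bright, with 9 of 9 measured above the floor defined below in at least 1 group and summed intensities of 26979 to 29408 in Blnk samples and 23424 to 24140 in pMIG samples. Of these 9, 3 rose (Cd79a, Blk and Cd72) and 0 fell. Of 10 pre-B markers 7 were above it, and Rag1, Rag2 and Dntt were not. Il2ra rose and Vpreb1 fell, and the sums were 25073 to 25704 in Blnk samples and 25006 to 26759 in pMIG samples. Few markers of other cell types were above the floor. Of 13 T and NK markers 3 were above the floor, with a summed intensity of 2765 to 3316 in Blnk samples and 1998 to 2142 in pMIG samples, mostly from Cd2, which mouse B-lineage cells also express. Cd2 rose (log2 change 0.73, limma adjusted p = 0.00719). Cd8a, at 184, 255 and 134 in Blnk samples against 185, 149 and 176 in pMIG samples, was also above the floor. So was Zap70, which averaged 164 in Blnk samples and 167 in pMIG samples. Neither of them passed (limma adjusted p = 0.855 for Cd8a and 0.934 for Zap70). Myeloid markers had 1 of 13 above the floor, Cd68 (0.59, limma adjusted p = 0.0866), with sums of 520 to 559 in Blnk samples and 475 to 504 in pMIG samples. Stromal and endothelial markers had 2 of 13, Pecam1, which B cells also carry, and Col1a1, with sums of 1338 to 1444 in Blnk samples and 1090 to 1191 in pMIG samples. Pecam1 rose (0.64, limma adjusted p = 0.00339). Erythroid and megakaryocyte markers had 0 of 7, with sums of 292 to 338 in Blnk samples and 282 to 321 in pMIG samples. The part of these markers in the results below was not tested.

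The floor was the level of genes that pre-B cells have no use for. On each array it was the 95th percentile over 54 genes of other organs, such as hormones, milk proteins and muscle proteins, and it averaged 101 over the 6 arrays. Of the 8 measured checkpoint genes, 7 were above it and Bcl6 was not.

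Among the 8 genes, Myc fell, and Ccnd2 and Cdkn2d rose. These are 1 gene lower and 2 higher past the threshold, where 1.10% of all genes were lower and 2.51% higher in the Blnk samples. In 6 of the 8 genes the 3 Blnk samples and the 3 pMIG samples did not overlap. These were Bach2, Myc and Ccnd3, lower in the Blnk samples (8.15% of all genes were), and Ccnd2, Cdkn2a and Cdkn2d, higher in the Blnk samples (11.8% of all genes were). The log2 changes of the 7 genes above the floor lay between -0.44 and 0.39. The median absolute change was 0.091 over all genes and 0.54 over the 720 genes past the threshold, which are selected for size.

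**Figure D1:**
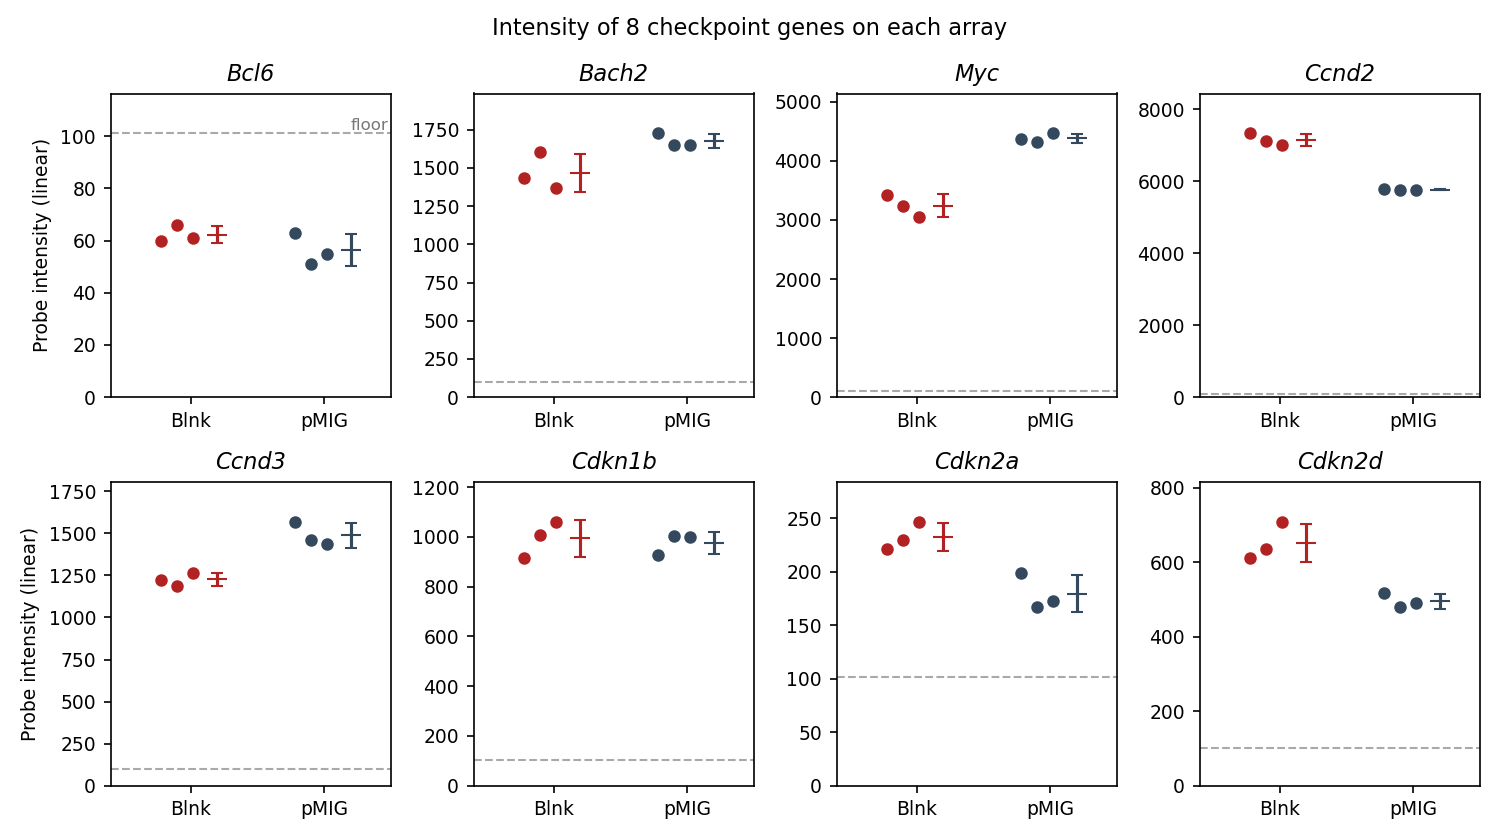
Linear probe intensity of the 8 measured checkpoint genes on each array, with the 3 Blnk samples in red at the left and the 3 pMIG samples in dark blue at the right of each panel. Bars give the mean and SD (n = 3) and the dashed line is the floor averaged over arrays (101). Bcl6 lies under the floor in both groups, Myc lies lower in every Blnk sample, and Ccnd2 and Cdkn2d lie higher in every Blnk sample.

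Bcl6 encodes the BTB/POZ zinc-finger repressor at the head of the checkpoint. Its intensity was 60, 66 and 61 in the Blnk samples, against 63, 51 and 55 in the pMIG samples. The groups overlapped, and all 6 values were under the floor of their array. Of the 54 genes of other organs, 70.4% were dimmer than Bcl6 on average. No change is given for Bcl6, because both groups were at background level, and the adjusted p of its fit was 0.528. The probe annotation lists 1 of the 2 RefSeq mRNAs of Bcl6.

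The upstream sequences of Bcl6 are shown because the gene has 2 annotated starts and because STAT5, which acts under BCR-ABL1, and BCL6 bind a related core. The stretches are the 200 bases before each start in the RefSeq promoter table (GRCm38.p6), 5′ to 3′. Capitals mark matches, on either strand, to the STAT and BCL6 core TTCNNNGAA, the E-box CACGTG bound by MYC, and the GC box GGGCGG. The E2F letters TTTCCCGC and TTTGGCGC and the BACH and AP-1 core TGACTCA were searched as well, and no matches overlapped.
Bcl6, first start, chr16:23988853-23989052, minus strand: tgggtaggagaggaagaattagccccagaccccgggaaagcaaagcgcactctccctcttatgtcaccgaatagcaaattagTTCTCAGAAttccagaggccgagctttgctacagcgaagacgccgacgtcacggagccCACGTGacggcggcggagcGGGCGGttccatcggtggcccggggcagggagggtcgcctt
Bcl6, second start, chr16:23981284-23981483, minus strand: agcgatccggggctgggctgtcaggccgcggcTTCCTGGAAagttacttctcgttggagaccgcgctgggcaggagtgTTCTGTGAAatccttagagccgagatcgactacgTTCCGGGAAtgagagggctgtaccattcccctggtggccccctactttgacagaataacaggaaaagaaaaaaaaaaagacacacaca
The stretch before the first start held 1 match to TTCNNNGAA, 1 to CACGTG and 1 to GGGCGG, and that before the second start held 3 matches to TTCNNNGAA. Over the full table windows of 250 bases before to 50 after a start, 8.30% of all 32851 promoters held TTCNNNGAA, 7.15% held CACGTG and 35.7% held GGGCGG. A match is a description of letters and not a binding site.

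Bach2 encodes a BTB and basic leucine zipper repressor that pairs with small MAF proteins. It read 1431, 1605 and 1367 in the Blnk samples, against 1728, 1653 and 1651 in the pMIG samples. Every Blnk sample was lower than every pMIG sample, but the nearest pair, Blnk 2 and pMIG 3, differed by little. The means were 1468 ± 123 with Blnk and 1677 ± 43.9 with pMIG (SD, n = 3 each). The log2 change of -0.20 (SE 0.080) did not pass in limma (adjusted p = 0.302), and its unadjusted 95% interval ran from -0.38 to -0.0096. The signal was well above the floor, 14.5 times it in the lower group, so dimness does not limit this reading. Bach2 had 1 promoter entry, with 1 match to TTCNNNGAA among the motifs searched.
Bach2, chr4:32417235-32417434, plus strand: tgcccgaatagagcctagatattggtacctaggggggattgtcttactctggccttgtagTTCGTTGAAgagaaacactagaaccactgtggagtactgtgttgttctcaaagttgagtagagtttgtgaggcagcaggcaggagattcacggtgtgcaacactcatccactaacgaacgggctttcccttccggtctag

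Myc encodes the growth-promoting factor that, among other targets, activates D cyclin genes. Its intensity was 3430, 3243 and 3046 in the Blnk samples, against 4369, 4319 and 4470 in the pMIG samples. The highest Blnk sample lay well under the lowest pMIG sample. The means were 3239.7 ± 192 with Blnk and 4386 ± 76.9 with pMIG (SD, n = 3 each), which is 0.738-fold. On the log2 scale Myc fell by 0.44 (SE 0.071, 95% interval -0.60 to -0.27), with a limma adjusted p of 0.0161. By p it ranked 397 among all genes. The log2 change lay between -0.48 and -0.39 with 1 array left out, and the adjusted p passed without Blnk 1 (0.0307) and with no other array left out, reaching 0.0915 without pMIG 3. The probe annotation lists 4 of 4 RefSeq mRNAs of Myc.

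The genes whose profile over the 6 arrays was closest to each factor were found by the root mean square difference of log2 intensity, each gene centred on its own mean, among genes brighter than the median gene. Closest to Myc were Tarbp1 (0.023), Wwc2 (0.027) and Cdca7l (0.032), with log2 changes of -0.43, -0.40 and -0.45. Closest to Bach2 were Phc1 (0.028), Ccdc88c (0.031) and D130040H23Rik (0.033), with changes of -0.20 for Phc1 and -0.20 for Ccdc88c. D130040H23Rik averaged 89.3 with Blnk and 101 with pMIG, near the floor of 101, so no change is given for it. For Bcl6, itself under the floor, the closest genes were Slc35b2 (0.047), Mir680-3 (0.049) and Stxbp2 (0.051). Over 6 arrays and this many genes close profiles are frequent, and the names are descriptions.

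Between the D cyclins Ccnd2 and Ccnd3, Ccnd2 rose and Ccnd3 did not pass. Ccnd2, the cyclin that responds to cytokine and MYC in B-lineage cells, stood at 7336, 7128 and 7004 in the Blnk samples, against 5791, 5766 and 5751 in the pMIG samples. The Blnk samples were all higher, and the pMIG samples were almost identical. The means were 7156 ± 168 with Blnk and 5769 ± 20.2 with pMIG (SD, n = 3 each), a 1.24-fold difference, and Ccnd2 rose by 0.31 on the log2 scale (SE 0.063; limma adjusted p = 0.0392). Its SD within groups, 0.024 on the log2 scale, was among the lowest 0.853% of all genes, and limma draws such a value up towards that of other genes. With 1 array left out Ccnd2 did not pass, at 0.0908 (without pMIG 1) to 0.144 (without pMIG 3), while its log2 change stayed between 0.29 and 0.33. It also stopped short of the threshold when quantile normalization was repeated (0.0502) and when arrays were centred on their medians (0.0904).

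Ccnd3, the D cyclin that mouse pre-B cells need to expand, stood at 1222, 1190 and 1267 in the Blnk samples, against 1570, 1459 and 1435 in the pMIG samples. All Blnk samples were lower. The means were 1226 ± 38.7 with Blnk and 1488 ± 72.0 with pMIG (SD, n = 3 each), and the log2 change of -0.28 (SE 0.070, 95% interval -0.44 to -0.12) did not pass in limma (adjusted p = 0.0870). It passed with quantile normalization repeated (-0.34, adjusted p = 0.0476), with dim genes left out (0.0288), with an offset of 16 (0.0320) and with a variance prior that was both trended and robust (0.00450).

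Within an array the log2 ratio of the Ccnd2 probe to the Ccnd3 probe was 2.59, 2.58 and 2.47 in the Blnk samples, against 1.88, 1.98 and 2.0 in the pMIG samples. The ratio has no meaning as a level, since probes differ in brightness, but its difference between groups is not moved by scaling each array with 1 factor. It averaged 2.55 ± 0.068 with Blnk and 1.96 ± 0.064 with pMIG (SD, n = 3 each), a difference of 0.59 or 1.5-fold. The exact two-sided permutation test over the 6 samples gave p = 0.10, the smallest value that 3 against 3 samples allow. Because Ccnd2 was higher and Ccnd3 lower in every Blnk sample, this p-value followed from the values above and is no further support. With any 1 array left out the difference was 0.55 to 0.63.

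Among the CDK inhibitors Cdkn2d, Cdkn2a and Cdkn1b, the first rose and the others did not pass. Cdkn2d encodes INK4D, which binds CDK4 and CDK6. It stood at 612, 635 and 709 in the Blnk samples, against 518, 479 and 490 in the pMIG samples. The lowest Blnk sample was above the highest pMIG sample. The means were 652 ± 50.7 with Blnk and 496 ± 20.1 with pMIG (SD, n = 3 each), a 1.31-fold difference, and Cdkn2d rose by 0.39 on the log2 scale (SE 0.080, 95% interval 0.21 to 0.58; limma adjusted p = 0.0403). With 1 array left out it did not pass, at 0.0722 (without Blnk 1) to 0.165 (without pMIG 3), nor with quantile normalization repeated (0.0825) or arrays centred on their medians (0.0540).

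Cdkn2a encodes INK4A, an inhibitor of CDK4 and CDK6, and ARF, which stabilises p53 by holding back MDM2, from separate first exons. Its probe stood at 221, 230 and 247 in the Blnk samples, against 199, 167 and 173 in the pMIG samples. The groups did not overlap. The means were 233 ± 13.2 with Blnk and 179.7 ± 17.0 with pMIG (SD, n = 3 each), 1.78 times the floor in the lower group, which makes Cdkn2a the dimmest relative to the floor of the 7 genes above it. The log2 change of 0.38 (SE 0.089, 95% interval 0.17 to 0.58) did not pass in limma (adjusted p = 0.0711). It passed with dim genes left out (0.0211), with an offset of 16 (0.0327), with a trended and robust variance prior (0.0135) and with array weights (0.0283). The probe annotation lists 2 of 2 RefSeq mRNAs of the locus, so the reading cannot tell INK4A from ARF.

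The upstream sequences of Cdkn2a and Cdkn2d are shown because the first gene has starts 12427 bases apart, read by 1 probe, and the second is the inhibitor that passed. Capitals mark the E2F letters TTTCCCGC and the GC box GGGCGG or its reverse complement, in the 200 bases before each RefSeq start (GRCm38.p6).
Cdkn2a, upstream start, chr4:89294620-89294819, minus strand: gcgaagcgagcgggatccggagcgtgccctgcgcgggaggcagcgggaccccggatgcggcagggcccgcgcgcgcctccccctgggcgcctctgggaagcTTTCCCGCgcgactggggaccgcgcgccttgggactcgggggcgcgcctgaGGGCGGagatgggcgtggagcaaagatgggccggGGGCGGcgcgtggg
Cdkn2a, downstream start, chr4:89282193-89282392, minus strand: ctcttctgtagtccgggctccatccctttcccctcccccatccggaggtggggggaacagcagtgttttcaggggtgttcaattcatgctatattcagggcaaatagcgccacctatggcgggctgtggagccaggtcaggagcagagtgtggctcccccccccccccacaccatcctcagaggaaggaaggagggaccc
Cdkn2d, chr9:21291210-21291409, minus strand: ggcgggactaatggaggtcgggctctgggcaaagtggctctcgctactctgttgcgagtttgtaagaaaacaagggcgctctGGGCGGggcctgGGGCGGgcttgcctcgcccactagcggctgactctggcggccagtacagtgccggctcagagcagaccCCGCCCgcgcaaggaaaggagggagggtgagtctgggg
The stretch before the upstream start of Cdkn2a, the one that leads into ARF, held 1 match to TTTCCCGC and 2 to GGGCGG. That before the downstream start held 0 matches of the 6 motifs searched, and that of Cdkn2d held 3 matches to GGGCGG. Over the longer windows of 250 bases before to 50 after a start, 1.07% of all promoters held TTTCCCGC and 35.7% held GGGCGG. Of the 8 measured genes 6 had a promoter entry, and Myc and Ccnd2 are named without one.

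Cdkn1b encodes the KIP1 protein, which binds cyclin-CDK complexes and accumulates in resting cells. Its brighter probe stood at 915, 1007 and 1061 in the Blnk samples, against 926, 1005 and 999 in the pMIG samples. The groups overlapped throughout, with means of 994 ± 73.8 with Blnk and 977 ± 44.0 with pMIG (SD, n = 3 each). The log2 change was 0.024 (SE 0.081; limma adjusted p = 0.933), and its sign turned under other scalings. The unadjusted 95% interval ran from -0.16 to 0.21. The second probe, the other of the 2 annotated to Cdkn1b alone, stood at 383, 379 and 427 in the Blnk samples, against 307, 391 and 392 in the pMIG samples. These groups overlapped too, and the change of 0.13 (SE 0.11) did not pass (limma adjusted p = 0.663 over all single-gene probes).

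**Figure D2:**
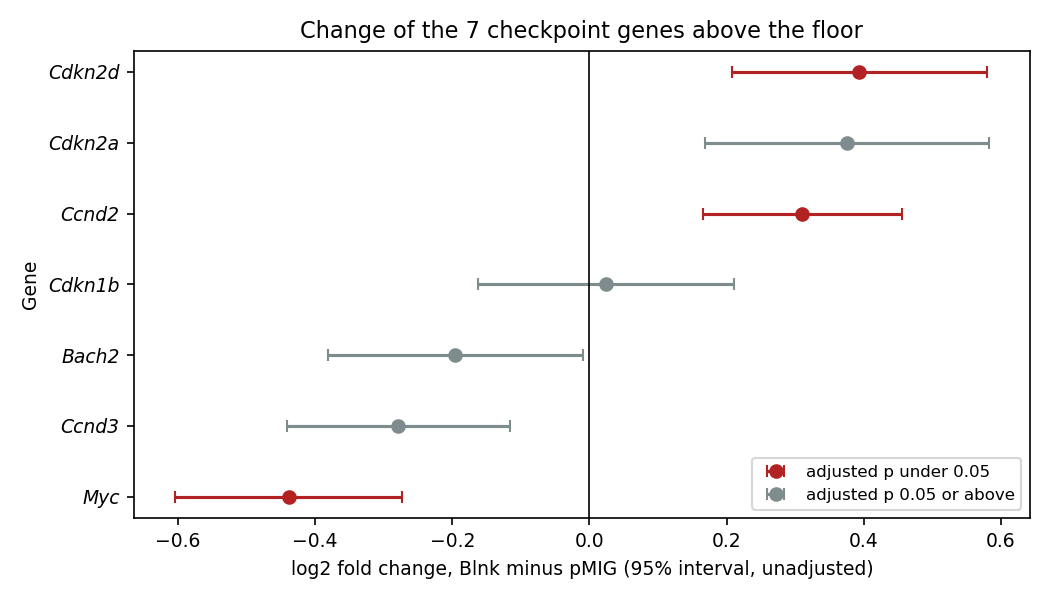
log2 fold change (Blnk minus pMIG, horizontal axis) of the 7 checkpoint genes above the floor, with the unadjusted 95% interval of limma. Points in red passed at an adjusted p under 0.05 (Cdkn2d at 0.39, Ccnd2 at 0.31 and Myc at -0.44), and those in grey did not.

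**Figure D3:**
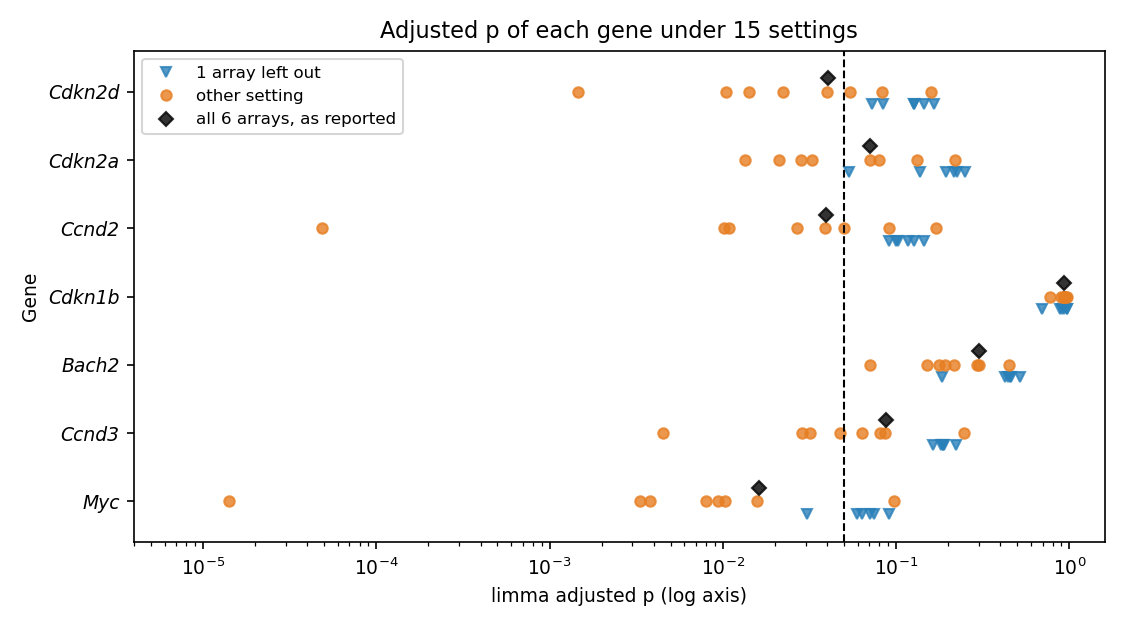
limma adjusted p (log axis) of the same 7 genes under 15 settings, with the reported fit as a black diamond, fits with 1 array left out as blue triangles and other settings as orange circles. The dashed line is 0.05. Myc lies left of it in all orange settings except the replicate block (0.0976), but only 1 of its 6 blue triangles does. The orange circles of Ccnd2, Ccnd3, Cdkn2a and Cdkn2d lie on both sides.

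Around these genes, 10 lists of partners, regulators and targets, chosen with earlier results of these data known, held 143 distinct measured genes. Of these 7 rose and 0 fell, which is 4.90%, where 2.51% of all genes were higher, 1.10% lower and 3.61% passed in either direction. The split by direction depended on the setting. The split of all genes, given in brackets, moved too, from 500 higher and 220 lower as reported. With quantile normalization repeated the lists had 6 higher and 4 lower (411 and 327), and with an offset of 16, 8 and 5 (741 and 359). With the trended and robust prior it was 12 and 9 (1021 and 518), and with array weights 7 and 3 (593 and 299). With dim genes left out it was 10 and 6 (807 and 420), among fewer list genes and fewer genes in all. The other settings had no lower list gene. Counts and medians of a list include its genes under the floor in both groups, whose changes cannot be read. Above the floor in at least 1 group were 12 of 14 genes of the MYC network, 19 of 20 D cyclin partners and 3 of 4 other CDK inhibitors. The same held for 15 of 15 turnover genes and 18 of 19 inputs, and the number for the other lists is given below. At an adjusted p under 0.05 the MYC network, the partners of D cyclins, the other CDK inhibitors and the p53 regulators each had 0 genes past the threshold. In the first 2 of these lists that count depended on the setting, as did counts of other lists below. The lists of p53 targets and of BCL6-repressed genes each had 1 lower gene under any of several settings. These were quantile normalization repeated, dim genes left out, an offset of 16, the trended and robust prior, and array weights. With that prior the inputs had 2 genes higher and 3 lower, and the BACH2 list had 2 higher and 1 lower.

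In the MYC network, which holds the MYC relatives, their partner MAX and the antagonists of the MXD group, 0 of 14 genes passed, and the median log2 change was -0.066, against 0 over all genes. Mycn, a MYC relative, stood at 768, 848 and 831 in the Blnk samples, against 981, 981 and 954 in the pMIG samples. The groups did not overlap, and its change of -0.25 (SE 0.069) did not pass (limma adjusted p = 0.112). Mlx, a partner of glucose-sensing relatives of MYC, had a change of 0.28 (SE 0.077; limma adjusted p = 0.114). With dim genes left out and with the trended and robust prior, Mycn (0.0407 and 0.0133) and Mlx (0.0403 and 0.0178) passed, and with an offset of 16 Mycn did (0.0456).

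Of the 20 genes of D cyclin partners, RB and E2F, 0 passed, with a median of 0.020. The kinase Cdk6, which D cyclins activate and INK4 proteins bind, stood at 2865, 2701 and 2508 in the Blnk samples, against 3236, 3330 and 3330 in the pMIG samples. All Blnk samples were lower, and the change of -0.30 (SE 0.074) did not pass (limma adjusted p = 0.0843). Tfdp2, a dimer partner of E2F factors, had a change of -0.32 (SE 0.078; limma adjusted p = 0.0799). Both genes passed with quantile normalization repeated (Cdk6 0.0319, Tfdp2 0.0299), with dim genes left out (0.0272 and 0.0251), with an offset of 16 (0.0314 and 0.0327) and with the trended and robust prior (0.00146 and 0.00822). Tfdp2 also passed with array weights (0.0343), and the list had 1 to 3 calls under these settings. Of the 4 other CDK inhibitors 0 passed, with changes between -0.07 for Cdkn2c, the INK4C gene, and 0.11 for Cdkn3, a CDK phosphatase.

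Of 13 p53 regulators, 11 of them above the floor, 0 passed, with a median of -0.051. The smallest adjusted p values were those of the kinase Chek2 (-0.23, SE 0.081, limma adjusted p = 0.212) and the damage adaptor Trp53bp1 (-0.22, SE 0.080, limma adjusted p = 0.240). Of 21 p53 targets, 15 of them above the floor, 1 rose and 0 fell, with a median of 0.0078. The riser was the antiproliferative gene Btg2, at 767, 1096 and 1139 in the Blnk samples, against 464, 538 and 550 in the pMIG samples (log2 change 0.93, SE 0.15, limma adjusted p = 0.0173). Of the fits that left out 1 array, it passed in the one without Blnk 1 (0.00676), and reached 0.110 without Blnk 2.

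Among 12 BCL6 corepressors and POZ relatives, 9 of them above the floor, 1 rose and 0 fell, with a median of 0.061. Zbtb32, a BTB/POZ repressor of lymphocytes, stood at 187, 203 and 176 in the Blnk samples, against 86, 82 and 75 in the pMIG samples. The pMIG values were under the floor, so Zbtb32 was at least 1.86-fold higher with Blnk (limma adjusted p = 0.000272), and it passed with every array left out. Of 13 genes that BCL6 represses in B cells, 11 of them above the floor, 2 rose and 0 fell, with a median of -0.030. Ccl3, a chemokine, stood at 1452, 1582 and 1378 in the Blnk samples, against 197, 234 and 249 in the pMIG samples (log2 change 2.70, SE 0.10, limma adjusted p = 2.83e-05). The lymphoid factor Irf4 averaged 1977 ± 9.87 with Blnk and 1495 ± 62.7 with pMIG (SD, n = 3 each; log2 change 0.40, limma adjusted p = 0.0164), and of the arrays left out it passed only without pMIG 2 (0.0483).

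Of 16 BACH2 relatives, small MAF partners and targets, 10 of them above the floor, 1 rose and 0 fell, with a median of -0.0080. This was Ftl1, the ferritin light chain, which averaged 3737 ± 186 with Blnk and 2880.3 ± 104 with pMIG (SD, n = 3 each; log2 change 0.38, limma adjusted p = 0.0319), and each fit lacking 1 array missed the threshold (0.0711 lacking Blnk 2, 0.119 lacking Blnk 3), as did that with arrays centred on their medians (0.0637). Of 15 genes in the turnover of MYC, D cyclins and KIP1, 1 rose and 0 fell, with a median of 0.096. Fbxo4, an F-box protein of D cyclin turnover, stood at 203, 207 and 185 in the Blnk samples, against 133, 155 and 129 in the pMIG samples (log2 change 0.52, SE 0.092, limma adjusted p = 0.0248). Among fits lacking 1 array, the one lacking pMIG 2 passed (0.0243) and 5 did not. Of 19 inputs to the checkpoint 2 rose and 0 fell, with a median of -0.042, namely Irf4 and the zinc-finger factor Ikzf3 (0.39, SE 0.081, limma adjusted p = 0.0447), which missed the threshold in each fit lacking 1 array (0.0656 lacking Blnk 1, 0.146 lacking Blnk 3), with quantile normalization repeated (0.0979) and with arrays centred on their medians (0.0669).

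**Figure D4:**
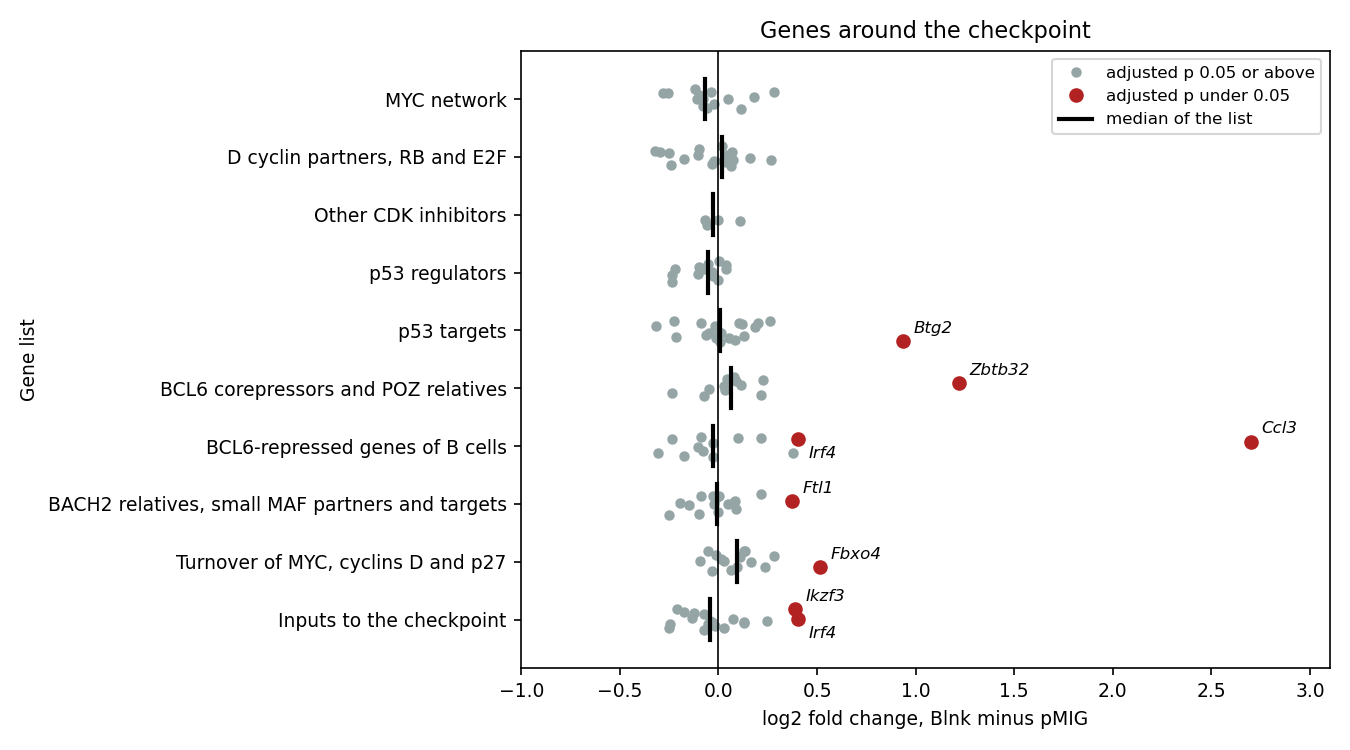
log2 fold change (Blnk minus pMIG, horizontal axis) of the measured genes of 10 lists, 1 point per gene, with genes past an adjusted p of 0.05 in red and named, others in grey, and the median of each list as a black bar. Vertical scatter within a list only separates points. The medians lie between -0.066 and 0.096, and Ccl3 (2.70) stands farthest from 0. The point of Zbtb32 rests on pMIG values under the floor and has no exact place.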

How the data were processed

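Total RNA was hybridised to 6 Affymetrix arrays, and groups and replicate numbers came from the sample titles. The deposited values are intensities as linear whole numbers. The submitters' processing notes name RMA, with no version. Because RMA normally returns log2 values, the linear scale was inferred from the values alone. Because whole numbers make large steps for dim probes (13.7% to 14.1% of probes per array were below 16), dim genes are less precise, and precision is limited by having 3 arrays per group.

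Of 35421 probes, 21789 had 1 gene symbol in the platform annotation, 1621 had several and 12011 none. Entrez identifiers of 21698 probes matched a gene table of GRCm38.p6, used for names, and 0 symbols changed. The brightest single-gene probe by mean intensity gave 19938 genes. Intensities were log2-transformed with nothing added and fitted in limma 3.58.1 (lmFit, eBayes; R 4.3.3) on group alone, with two-sided tests. The script was tested on simulated data with 200 genes changed by known amounts. It recovered 2% of log2 changes of 0.3, 30% of those of 0.5, 94% of those of 1 and 100% of those of 2. A gene that did not pass can therefore still have changed by a small amount. Of 60 genes of other organs listed for the floor, 54 were measured.

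The genes and lists were chosen with earlier results of these data known. The rule named the 8 measured genes with all their probes, Blnk, up to 4 passing members of each list (or, with none, the 2 with the smallest adjusted p), and 3 closest profiles for each of Bcl6, Bach2 and Myc, and the brightest markers of other cell types. The B-lineage and pre-B markers named were picked after their values were seen. Counts and medians describe lists, with no set test. Alternatives were a replicate block, quantile normalization repeated, median centring, genes under the 40th percentile left out, an offset of 16, the mean of all probes, a trended robust prior, array weights, leaving out each array, and floors at the 90th and 75th percentile. Sequences are from RefSeq (GRCm38.p6).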

Additional observations from a re-analysis of the deposited data

How the results depend on the processing

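Myc kept its direction under all settings run and passed under all but the replicate block and 5 of the 6 fits with 1 array left out. The labels do not say whether samples of the same replicate number belong together. The correlation of deviations from the group means between samples of the same number was -0.19, 0.058 and -0.12. With 3 samples per group such values can neither show nor exclude a pairing. With the replicate block, which leaves fold changes as they were, 287 genes passed instead of 720, and 3 instead of 7 genes of the lists. Myc (-0.44, adjusted p = 0.0976), Ccnd2 (0.31, adjusted p = 0.170) and Cdkn2d (0.39, adjusted p = 0.158) did not pass there. With quantile normalization repeated, 411 genes were higher and 327 lower, against 500 and 220 as reported, Ccnd2 (0.29) and Cdkn2d (0.35) did not pass and Ccnd3 (-0.34) did. With arrays centred on their medians, 417 were higher and 291 lower, and Ccnd2 (0.28) and Cdkn2d (0.36) did not pass. These scalings moved the median of all genes by -0.033 and -0.035. With dim genes left out, 1227 genes and 16 list genes passed, with Ccnd3 (-0.28) and Cdkn2a (0.38) among them. With an offset of 16 these counts were 1100 and 13 (Ccnd3 -0.28, Cdkn2a 0.35), with a trended robust prior 1539 and 21 (Ccnd3 -0.28, Cdkn2a 0.38), and with array weights Cdkn2a (0.41) passed. Cdkn1b turned sign with quantile normalization (-0.020), with median centring (-0.011), without Blnk 3 (-0.024) and without pMIG 1 (-0.014). Leaving out 1 array gave 267 to 436 genes and 2 to 4 list genes past the threshold, fewer arrays weakening the test by construction. The log2 change then lay between -0.48 and -0.39 for Myc, 0.29 and 0.33 for Ccnd2, 0.33 and 0.44 for Cdkn2d and -0.024 and 0.083 for Cdkn1b. The number of genes above the floor was 7 at each of the 3 percentiles. For the other differences between settings the cause was not tested.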
